A study of Mus musculus with 2 samples.

Results

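Lipid-associated macrophage genes were described in hearts of old mice through 10 genes: Trem2, Cd36, Apoe, Lpl, Fabp5, Plin2, Lgals3, Gpnmb, Cd9 and Cd63. They are a list known from other tissues, whose rule uses no measured value, but it was chosen with earlier results of these data known. All 10 genes were present among the 15247 genes of the table. Mice of the p16-FDR strain, on a C57BL/6 background and 20 to 22 months old, carry a p16 reporter that joins an FLP recombinase to a diphtheria toxin receptor fused with mCherry. Heart cells positive for mCherry were sorted by flow cytometry and profiled by droplet single-cell RNA sequencing, in which each RNA molecule caught is counted as a unique molecular identifier (UMI). There were 2 samples of 1 group, with no mCherry-negative, young or reporter-free group beside them, so every value below describes mCherry-positive cells of old hearts. The cell names carry 2 library prefixes, called Heart1 and Heart2 here. These could not be matched to the sample records, and the sources do not say whether each library came from separate animals, so any spread between them may be technical.

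Macrophages that take up much lipid, first described in adipose tissue of obese animals, share a set of genes for sensing, taking up, storing and passing on lipid. The receptor Trem2 binds lipids and signals through the adaptor Tyrobp, Cd36 brings in fatty acids, Lpl frees fatty acids from lipoproteins, Fabp5 carries them inside the cell, Plin2 coats the droplets in which they are stored, and Apoe carries cholesterol out of the cell. In the heart, Lpl and Cd36 also serve the fatty acid supply of cardiomyocytes and of the endothelium, and several of the other genes are used by fibroblasts, so each gene was read in macrophages with fibroblasts beside them.

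Cells were classed by markers that include none of the 10 genes. A macrophage had a UMI of at least 5 of 8 macrophage markers and of at most 2 of 8 fibroblast markers, and a fibroblast had the reverse. This gave 37 macrophages and 204 fibroblasts among the 266 cells of Heart1, and 207 macrophages and 938 fibroblasts among the 1160 cells of Heart2. Median depth was 8133 UMIs in macrophages and 11856 UMIs in fibroblasts of Heart1, and 9531 UMIs in macrophages and 8771 UMIs in fibroblasts of Heart2. All 8 macrophage markers were present in 233 of the 244 macrophages, and 169 of these 244 cells had no fibroblast marker at all. The libraries shared 0 cell barcodes. As a measure of free RNA, the fibroblast gene Dcn was at 11.5 CPM in Heart1 macrophages and 26.0 CPM in Heart2 macrophages (CPM, a gene's UMIs relative to all UMIs of the class, on a fixed scale), which is 0.0584% and 0.127% of its level in the fibroblasts of the same library. The macrophage gene Lyz2 in fibroblasts was at 0.0233% of its macrophage level in Heart1 and 0.0393% in Heart2. Both genes are gate markers, and a cell could have at most 2 markers of the other class, so the gate itself limits these values. Markers of cardiomyocytes were seen in both classes: at least 2 of 7 were present in 21.6% of macrophages and 7.35% of fibroblasts of Heart1, and in 20.3% of macrophages and 2.56% of fibroblasts of Heart2. Their summed level was 167 CPM in macrophages and 54.0 CPM in fibroblasts of Heart1, and 125 CPM in macrophages and 23.5 CPM in fibroblasts of Heart2. Their part in the levels of Lpl, Cd36, Plin2 and Fabp5 was not tested.

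The start regions of 4 of the genes are shown as examples of unlike use between the classes. Trem2 and Cd36 were at or near 0 in fibroblasts of both libraries, Gpnmb changed sides between libraries, and Plin2 was present in both classes. Each is the RefSeq window of 300 bases on GRCm38.p6, from 250 bases before the start site, written 5′ to 3′ on the gene's own strand. Capitals mark matches to short motifs searched on both strands. These are chr17:48346151-48346450 on the plus strand for Trem2, chr5:17835847-17836146 on the minus strand for Cd36, chr6:49036268-49036567 on the plus strand for Gpnmb and chr4:86670010-86670309 on the minus strand for Plin2.
Trem2: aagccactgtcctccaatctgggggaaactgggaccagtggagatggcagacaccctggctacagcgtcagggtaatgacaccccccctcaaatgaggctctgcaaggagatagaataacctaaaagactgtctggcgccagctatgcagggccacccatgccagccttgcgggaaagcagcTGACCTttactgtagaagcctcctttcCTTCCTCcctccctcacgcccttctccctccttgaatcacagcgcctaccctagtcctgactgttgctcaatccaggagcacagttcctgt
Cd36: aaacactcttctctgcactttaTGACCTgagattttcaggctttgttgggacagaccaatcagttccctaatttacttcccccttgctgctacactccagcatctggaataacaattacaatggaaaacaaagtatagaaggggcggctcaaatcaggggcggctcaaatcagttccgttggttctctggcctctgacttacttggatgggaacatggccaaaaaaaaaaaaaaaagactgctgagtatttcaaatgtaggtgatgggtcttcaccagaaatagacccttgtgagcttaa
Gpnmb: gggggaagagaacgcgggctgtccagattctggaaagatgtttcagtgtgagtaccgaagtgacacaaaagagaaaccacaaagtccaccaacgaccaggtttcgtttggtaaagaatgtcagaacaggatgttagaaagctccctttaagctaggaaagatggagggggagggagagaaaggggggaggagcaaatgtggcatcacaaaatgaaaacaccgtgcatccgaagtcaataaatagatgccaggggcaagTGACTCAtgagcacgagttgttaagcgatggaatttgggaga
Plin2: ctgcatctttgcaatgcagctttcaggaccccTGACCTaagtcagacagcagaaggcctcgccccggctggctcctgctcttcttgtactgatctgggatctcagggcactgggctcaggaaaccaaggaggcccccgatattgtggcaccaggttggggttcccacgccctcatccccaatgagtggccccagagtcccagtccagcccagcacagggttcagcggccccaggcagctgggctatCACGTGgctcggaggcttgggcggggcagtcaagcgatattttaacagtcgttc

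Windows were found for 8 of the 10 genes, 10 windows in all. A gene was counted if any of its windows held the motif, while the share over all is per window. The nuclear receptor hexamer AGGTCA was present in 3 of the 8 genes and in 16.3% of all 32851 windows. It lay on the opposite strand, as TGACCT, at -68 from the start base of Trem2, at -228 in Cd36 and at -218 in Plin2. The core GAGGAAG of PU.1, the factor that sets the myeloid programme, was present in 2 of the 8 genes and in 13.6% of all windows. In Trem2 it lay on the opposite strand, as CTTCCTC, at -41, and Cd63 held the other match. The E-box CACGTG of the lysosomal CLEAR motif was present at -4 in Plin2, 1 of the 8 genes, and in 7.15% of all windows. The AP-1 site TGACTCA was present in Gpnmb, 8 bases past the start base, and in 5.20% of all windows. The TATA box TATAAA was present in 1 of the 8 genes, Apoe, and in 13.6% of all windows. Apoe had more than 1 window, and only the window with start base 19698621 held it. The matched windows of Apoe, Cd36 and Cd63 start inside the annotated span of the gene. The motifs overlapped each other in none of the 4 windows shown. A match describes letters and does not show that a factor binds there.

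Between macrophages and fibroblasts of the same hearts, 6 of the 10 genes were called higher in macrophages and 3 lower, and Gpnmb was called in neither direction. Trem2, Lgals3 and Cd36 had the largest differences, Apoe and Plin2 were higher by 1.99 and 1.86 on the log2 scale, and Cd9, Lpl and Cd63 were lower in macrophages. The 3 genes called lower were at a higher CPM in fibroblasts of both libraries, which says nothing of differences among macrophages. Across all genes, 17.1% of the 8791 tested were called higher in macrophages and 25.6% lower. The 3 of 10 called lower are near that last share. The median difference was 1.64 on the log2 scale over the 10 genes and -0.16 over all genes tested. The test was limma on log2(CPM + 5) of the UMIs summed per class and library, with library as a block, and a call needed a Benjamini-Hochberg adjusted p under 0.05 over all genes tested. With 4 sums the fit has 1 residual degree of freedom, so its errors rest mostly on the spread of other genes, and differences of low genes are understated on this scale.

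**Figure D1:**
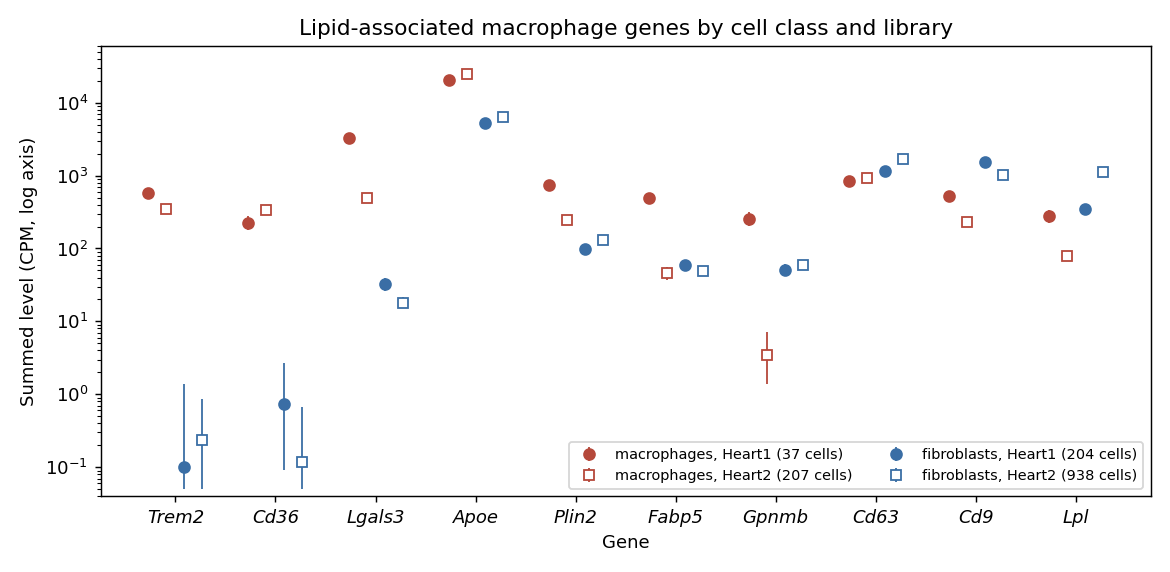
Summed level (CPM, log axis) of each gene in macrophages, left, and fibroblasts, right, of Heart1 and Heart2, with exact Poisson intervals cut at the foot of the axis; Trem2, with 0 UMIs in Heart1 fibroblasts, is drawn at 0.1. Trem2 and Cd36 are separated by over 100-fold between the classes, while Gpnmb and Fabp5 of Heart2 macrophages sit at or under the fibroblasts.

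Trem2 (chr17:48346401-48354147, plus strand), the lipid-sensing receptor, was at 570.5 CPM (95% Poisson interval 494 to 656) in Heart1 macrophages and 352 CPM (327 to 379) in Heart2 macrophages. Heart1 fibroblasts had 0 Trem2 UMIs in 204 cells, which allows up to 1.47% of cells (3 cells) to have a UMI, and Heart2 fibroblasts had 2 UMIs in 938 cells. These intervals cover counting error only. Set against a floor of 3 UMIs in the fibroblast sum, the Heart1 macrophage level was 510.3-fold higher, and the lower bound of the ratio interval was 411. In Heart2 the ratio of macrophages to fibroblasts was 1475 (interval 407 to 12203). The difference was 6.47 ± 0.27 on the log2(CPM + 5) scale (SE, limma, adjusted p = 3.31e-12), and both libraries gave the same direction (6.85 and 6.09). Before thinning, 33 of 37 Heart1 macrophages (89.2%) and 172 of 207 Heart2 macrophages (83.1%) had a Trem2 UMI. After each cell was thinned to 3000 UMIs, so that depth did not set the share, 70.3% and 62.3% of macrophages and 0% of fibroblasts in either library had one. Trem2 was therefore spread over most macrophages, at a median of 3 UMIs per cell in Heart1 and 2 in Heart2.

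Cd36 (chr5:17781690-17888801, minus strand), the fatty acid and oxidized lipoprotein receptor, was at 225 CPM (178 to 280) in Heart1 macrophages and 341 CPM (317 to 368) in Heart2 macrophages. Fibroblasts had 2 Cd36 UMIs in Heart1 and 1 in Heart2. The ratio of macrophages to fibroblasts was 302 (80.7 to 2534) in Heart1 and 2859.6 (512 to 113108) in Heart2. The difference was 5.70 ± 0.28 (SE, limma, adjusted p = 2.45e-11). Unlike 7 of the other genes, Cd36 had its higher macrophage level in Heart2, by 1.52-fold, and the thinned share of macrophages was 24.3% in Heart1 and 44.9% in Heart2. Of the 8 listed partners of TREM2 signalling, all 8 were called higher in macrophages, against 17.1% of all genes tested. This compares cell classes and does not measure signalling through Trem2. Tyrobp differed by 8.58 on the log2 scale and the phosphatase Inpp5d, which restrains signalling from such receptors, by 4.81. Of 6 tested genes for lipoprotein and scavenger uptake, 3 were higher in macrophages and 2 lower. The mannose receptor Mrc1 (7.48) and the scavenger receptor Stab1 (7.07) had the largest differences.

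Apoe (chr7:19696109-19699188, minus strand), the lipoprotein that carries cholesterol away from cells, was at 20764 CPM in Heart1 macrophages and 25017 CPM in Heart2 macrophages, against 5195 CPM in Heart1 fibroblasts and 6342 CPM in Heart2 fibroblasts. The ratio was close in both libraries, 3.997 in Heart1 (interval 3.88 to 4.11) and 3.94 in Heart2 (3.90 to 3.99). The difference was 1.99 ± 0.09 (SE, limma, adjusted p = 8.07e-12). Fibroblasts held 25.0% and 25.4% of the macrophage level, far above the cross-class level of Lyz2, which as a gate marker is limited by the gate. Among 7 tested genes for cholesterol efflux and its nuclear receptors, 4 were higher in macrophages and 1 lower. The exporters Abcg1 (2.21) and Abca1 (2.15) had the largest differences.

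Lpl (chr8:68880491-68907448, plus strand), the secreted lipase, ran the other way. It was at 279 CPM in Heart1 macrophages and 78.1 CPM in Heart2 macrophages, against 345 CPM in Heart1 fibroblasts and 1107 CPM in Heart2 fibroblasts. The classes were close in Heart1 and far apart in Heart2, where macrophages had 7.06% of the fibroblast level. The difference was -2.02 ± 0.46 (SE, limma, adjusted p = 0.00178), made of -0.30 in Heart1 and -3.74 in Heart2, and without the library block the adjusted p was 0.0787. In Heart1, 72 of the 97 macrophage UMIs of Lpl (74.2%) came from a single cell, and without that cell the level was 75.7 CPM and the difference -2.93 (limma, adjusted p = 1.03e-05). Of 4 tested partners of Lpl, 0 were higher in macrophages and 2 were lower: Angptl4, a secreted inhibitor of the enzyme (-3.59), and the proteoglycan Sdc1 (-2.84).

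Plin2 (chr4:86648386-86670060, minus strand), the coat protein of lipid droplets, was at 740.4 CPM in Heart1 macrophages and 244 CPM in Heart2 macrophages, against 98.4 CPM in Heart1 fibroblasts and 131 CPM in Heart2 fibroblasts. It was higher in macrophages of both libraries, by 7.53-fold and 1.86-fold, and the difference was 1.86 ± 0.31 (SE, limma, adjusted p = 9.34e-05). In Heart1, 5 cells held 58.4% of the macrophage UMIs, against 11.1% for the top 5 cells of Heart2. After thinning, 59.5% of macrophages and 27.9% of fibroblasts of Heart1 had a UMI, and 41.5% of macrophages and 29.6% of fibroblasts of Heart2.

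Fabp5 (chr3:10012548-10016607, plus strand), the fatty acid carrier, was at 489.8 CPM in Heart1 macrophages and 46.2 CPM in Heart2 macrophages, against 60.0 CPM in Heart1 fibroblasts and 49.6 CPM in Heart2 fibroblasts. Only Heart1 macrophages stood apart. The difference was 1.42 ± 0.43 (SE, limma, adjusted p = 0.0139), with 2.93 in Heart1 and -0.09 in Heart2. A single Heart1 cell held 121 of the 170 macrophage UMIs (71.2%). Without that cell the difference was 0.57 and the adjusted p 0.156, so the call rested on it, and across 11 other settings 5 made the call (adjusted p 0.0103 to 0.311). The gene has a named copy, Fabp5l2, and how reads shared with it were counted is not known. Of 9 tested genes for fatty acid binding and lipid droplets, 4 were higher in macrophages and 2 lower. The acyl-CoA synthetase Acsl1 differed by 2.09 and the monoglyceride lipase Mgll by -3.28.

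Lgals3 (chr14:47367751-47386160, plus strand) encodes galectin-3, a lectin abundant in phagocytes. It was at 3299 CPM in Heart1 macrophages and 492 CPM in Heart2 macrophages, against 32.4 CPM in Heart1 fibroblasts and 18.1 CPM in Heart2 fibroblasts. The difference was 5.44 ± 0.32 (SE, limma, adjusted p = 2.68e-10). Although the summed level was 6.71 times higher in Heart1, the thinned share of macrophages with a UMI was 70.3% in Heart1 and 50.7% in Heart2, with intervals that overlapped. In Heart1, 5 cells held 78.8% of the UMIs, against 22.6% for the top 5 cells of Heart2. The fibroblast level was 0.983% and 3.69% of the macrophage level, above that of the gate marker Lyz2. A single Heart1 fibroblast held 44 of the 87 UMIs (50.6%).

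Gpnmb (chr6:49036546-49070929, plus strand), a transmembrane glycoprotein of lysosome-rich cells, did not behave alike in the libraries. It was at 254 CPM in Heart1 macrophages and 3.44 CPM in Heart2 macrophages, against 51.1 CPM in Heart1 fibroblasts and 59.2 CPM in Heart2 fibroblasts. Macrophages were 4.97-fold higher in Heart1, and in Heart2 they had 5.81% of the fibroblast level. The interval of the Heart1 ratio, 3.76 to 6.54, covers counting error only and leaves out the spread between cells. The difference was -0.36 ± 0.68 (SE, limma, adjusted p = 0.717), made of 2.21 in Heart1 and -2.93 in Heart2. All 88 macrophage UMIs of Heart1 came from 5 of 37 cells, with 44, 23, 11, 9 and 1 UMIs. The 7 UMIs of Heart2 came from 3 of 207 cells, with 5, 1 and 1. In fibroblasts the gene was spread over many cells, 72 of 204 in Heart1 (35.3%) and 312 of 938 in Heart2 (33.3%), with at most 13 UMIs in a cell. Among the classed cells, most of those with a Gpnmb UMI were fibroblasts.

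The tetraspanins Cd9 (chr6:125460266-125494791, minus strand) and Cd63 (chr10:128900989-128912822, plus strand), membrane proteins of the cell surface and of late endosomes, were lower in macrophages. Cd9 was at 527 CPM in Heart1 macrophages and 231 CPM in Heart2 macrophages, against 1552 CPM in Heart1 fibroblasts and 1022 CPM in Heart2 fibroblasts. The Cd9 difference was -1.84 ± 0.17 (SE, limma, adjusted p = 9.92e-08). Cd63 was at 833 CPM in Heart1 macrophages and 940.3 CPM in Heart2 macrophages, against 1153 CPM in Heart1 fibroblasts and 1662 CPM in Heart2 fibroblasts. The Cd63 difference was small, -0.64 ± 0.15 (SE, limma, adjusted p = 0.0016), and without the library block the adjusted p was 0.0826. Each gene has a named pseudogene copy. Of 7 other tetraspanins tested, 2 were higher in macrophages and 2 lower, with the leukocyte members Cd53 (5.65) and Cd37 (4.89) differing most.

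Of 12 tested lysosomal genes, 9 were higher in macrophages and 1 lower, with the proteases Ctsb (2.82) and Ctsd (2.65) differing most. Of 9 further lipid-associated macrophage genes, 4 were higher and 4 lower, led by the elastase Mmp12 (4.74) and the collagen-degrading protease Ctsk (-4.14). Spp1, which encodes osteopontin, was not called (-0.94, limma, adjusted p = 0.0586). It was at 259 CPM in macrophages and 213 CPM in fibroblasts of Heart1, and at 3.93 CPM in macrophages and 35.1 CPM in fibroblasts of Heart2. In Heart1, 74 of its 90 macrophage UMIs came from the cell that held most Lgals3.

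**Figure D2:**
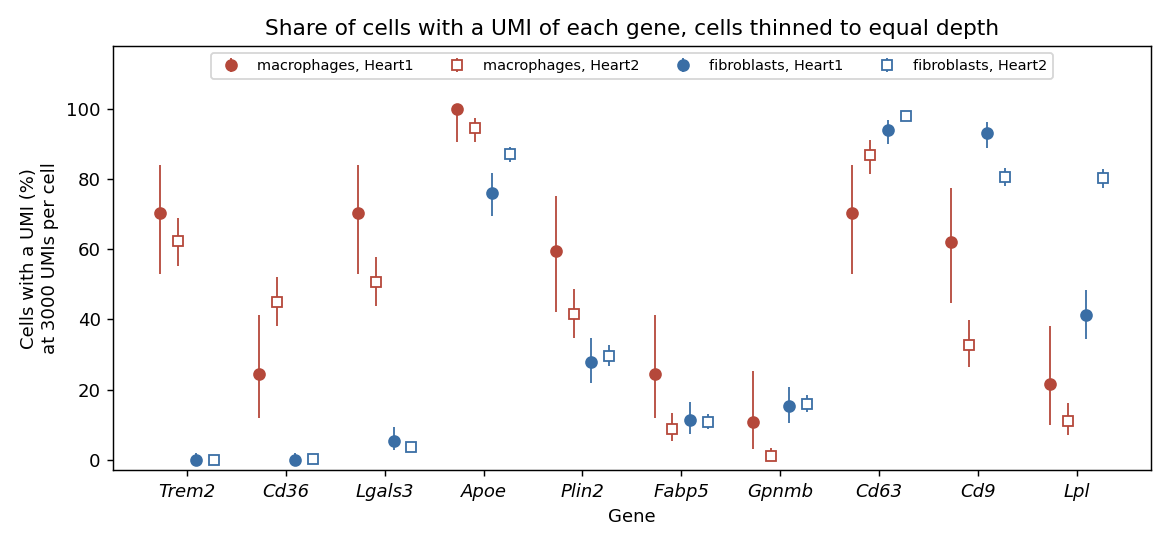
Share of macrophages, left, and fibroblasts, right, with at least 1 UMI of each gene after thinning to 3000 UMIs per cell, for Heart1 and Heart2, with exact binomial intervals. Trem2, Lgals3 and Cd36 are more frequent in macrophages, while Cd9, Cd63, Lpl and Gpnmb are as frequent or more frequent in fibroblasts.

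Between the libraries, summed macrophage levels had intervals apart for 9 of the 10 genes, all but Cd63, and thinned shares for 1, Cd9 (62.2% of macrophages in Heart1 and 32.9% in Heart2). These counts cannot be set against each other, since a sum of UMIs has a narrower interval than a share of 37 cells. Intervals of levels also leave out the spread between cells, so intervals apart do not show that the libraries differ. In Heart1, the top 5 macrophages for each gene held 95.9% of the Fabp5, 92.8% of the Lpl, 78.8% of the Lgals3 and 76.9% of the Cd36 UMIs. For Trem2 and Apoe this was 48.5% and 38.3%. Shares also differed for Gpnmb (10.8% in Heart1 and 0.966% in Heart2) and Fabp5 (24.3% and 8.70%), with intervals that overlapped. The Heart1 level was 73.7 times the Heart2 level for Gpnmb, 10.6 times for Fabp5, 6.71 times for Lgals3, 3.58 times for Lpl, 3.03 times for Plin2, 2.28 times for Cd9 and 1.62 times for Trem2. There are 37 macrophages in Heart1, so single cells weigh heavily there, and the gap has no test, since the libraries are replicates of 1 group. A single Heart1 macrophage with 16765 UMIs held 500 of the 1145 Lgals3 UMIs (43.7%) as well as most of the Fabp5, Lpl and Spp1 UMIs. Without it, Heart1 macrophages had 1953 CPM of Lgals3, 148 CPM of Fabp5, 75.7 CPM of Lpl and 197 CPM of Gpnmb. Trem2 (578 CPM) and Plin2 (702 CPM) changed little.

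**Figure D3:**
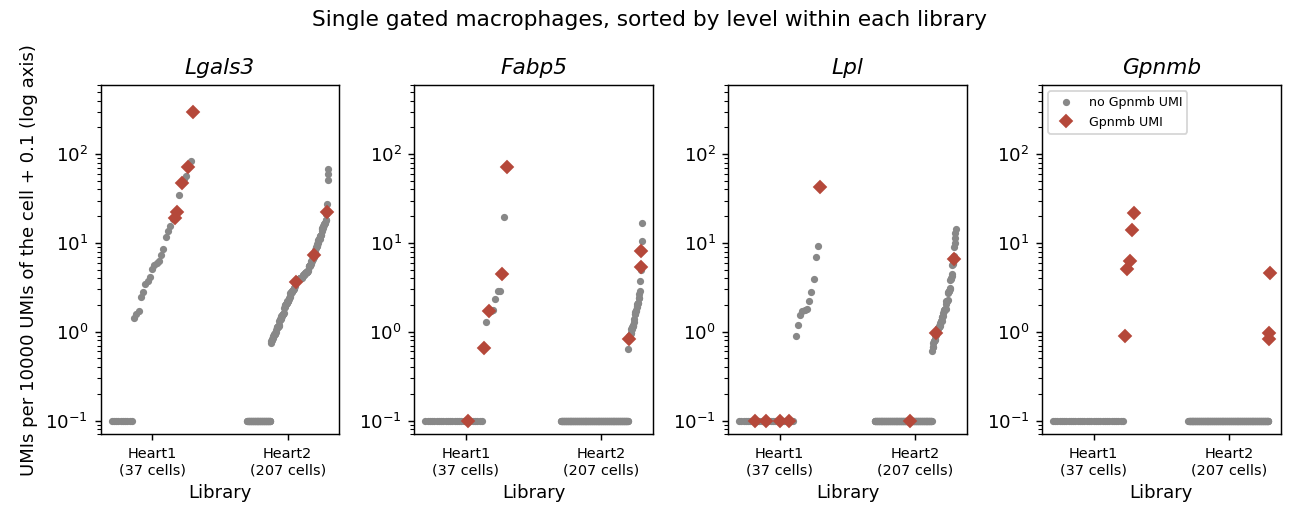
UMIs per 10000 UMIs of the cell, plus 0.1, on a log axis, in each macrophage of Heart1 (37 cells) and Heart2 (207 cells), sorted within the library, with red diamonds for the 8 macrophages with a Gpnmb UMI. The Heart1 cell at the top of Lgals3 is also at the top of Fabp5 and Lpl.

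The 8 macrophages with a Gpnmb UMI had a UMI of 7 to 9 of the other 9 genes. All had Trem2, Lgals3, Cd9, Cd63, Apoe and Plin2, and 1 cell, the Heart1 cell with most Lgals3, had all 10. They were deep cells, with 11167 to 20499 UMIs, and depth alone raises the number of genes seen. In that depth range the median was 8 of the other 9 genes in the 5 cells with Gpnmb and 7 in the 6 cells without in Heart1, and 8 in the 3 cells with and 6 in the 67 cells without in Heart2. The ranges overlapped in both libraries. None had more than 1 fibroblast marker, and their Dcn count was 0 or 1. They were not alike in other genes. The 3 cells of Heart2 had 0 UMIs of Folr2, a marker of resident-type macrophages, and 170 to 197 UMIs of the MHC class II gene H2-Aa, while 4 of the 5 cells of Heart1 had 3 to 14 Folr2 UMIs and at most 9 of H2-Aa.

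After thinning, macrophages had a median of 5 of the 10 genes in Heart1 (range 2 to 9) and 4 in Heart2 (1 to 8). At least 7 genes were seen in 8 of 37 macrophages of Heart1 (21.6%) and 11 of 207 of Heart2 (5.31%). In fibroblasts this was 0 of 204 cells in Heart1 and 5 of 938 in Heart2 (0.533%), with a median of 4 genes in both libraries. Without thinning, at least 7 genes were seen in 13 of 37 macrophages (35.1%) and 9.31% of fibroblasts of Heart1, and in 60 of 207 macrophages (29.0%) and 7.68% of fibroblasts of Heart2. A gene without a UMI may still be expressed, so these shares describe detection.

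Pairs of genes were compared by the share of macrophages with gene B among cells with and cells without gene A, after thinning. Of 45 pairs, 19 were seen together more often and 5 less often in both libraries, among 42 pairs with a value in both. All 37 Heart1 macrophages had Apoe, so pairs with Apoe as gene B had no difference there and could not count in either direction. Intervals were apart for 0 pairs in Heart1 and for 4 in Heart2, taking each pair from the gene listed first. In fibroblasts, 13 pairs were seen together more often and 15 less often in Heart1, and 20 and 16 in Heart2. Lgals3 went with Cd9: 76.9% of macrophages with Lgals3 had Cd9, against 27.3% of those without, in Heart1, and 42.9% against 22.5% in Heart2. Cd36 and Cd9 kept apart in Heart2, where 19.4% of macrophages with Cd36 had Cd9, against 43.9% of those without. In Heart1 the values were 66.7% with Cd36 and 60.7% without, from 9 and 28 cells. Trem2 and Lgals3 had no steady relation: Lgals3 was seen in 80.8% of macrophages with Trem2, against 45.5% without, in Heart1, and in 48.8% against 53.8% in Heart2.

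**Figure D4:**
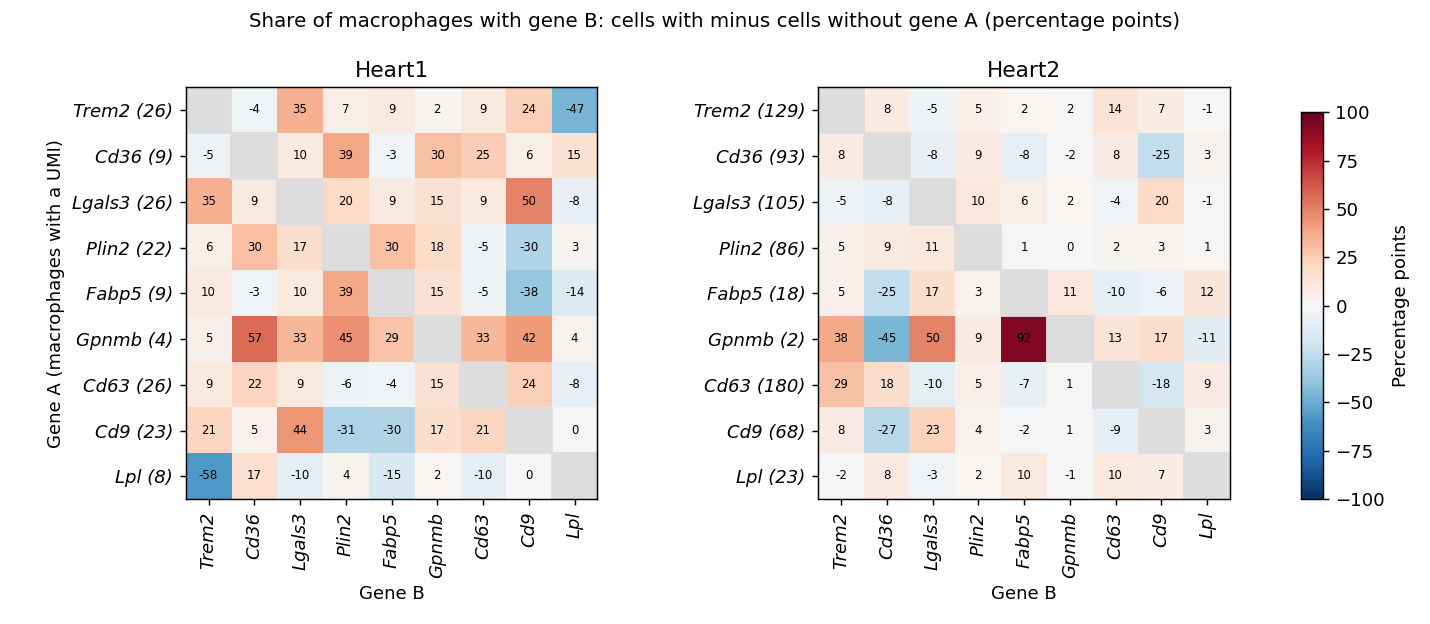
Share of macrophages with gene B among those with gene A minus the share among those without gene A, in percentage points, after thinning, in Heart1 and Heart2; the number of cells with gene A is in brackets, and Apoe, present in nearly all macrophages, is not drawn. Lgals3 and Cd9 are positive in both libraries, Cd36 and Cd9 are negative in Heart2, and the Gpnmb row rests on 4 and 2 cells.

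The split between Cd9 and Cd36 followed other macrophage genes in Heart2. Of macrophages with Folr2, 15.9% had Cd9, against 62.7% of those without, and 60.6% had Cd36, against 17.3%. With Folr2, 3.79% had Fabp5, against 17.3% without. The class II gene H2-Aa ran the other way, with Cd9 in 40.6% of cells with H2-Aa, against 17.4% without, and Cd36 in 37.0% against 60.9%. Macrophages with Ccr2, the chemokine receptor of monocyte-derived cells, had Cd9 in 59.4%, against 28.0% without, and Apoe in 78.1%, against 97.7%. The marker gate may hold monocytes and dendritic cells. The 5 monocyte markers in the table summed to 285 CPM in Heart1 macrophages and 115 CPM in Heart2 macrophages. Their sum was higher in fibroblasts, 556 CPM in Heart1 and 291 CPM in Heart2, so it does not single out monocytes. At least 2 of the 5 were present in 2.70% of Heart1 macrophages and 0.966% of Heart2 macrophages. The 2 dendritic cell markers in the table summed to 2.88 CPM in Heart1 macrophages and 117 CPM in Heart2 macrophages. Of these, Cd209a was seen in 0 of 37 Heart1 macrophages and 37 of 207 Heart2 macrophages. The part of monocytes and dendritic cells in these shares was not tested. Among the 10 genes these intervals were apart in Heart2 for 4 genes by Folr2, 2 by H2-Aa and 3 by Ccr2. In Heart1, with 18 cells with Folr2 and 19 without, Cd36 was seen in 38.9% against 10.5% with overlapping intervals, and Cd9 in 61.1% against 63.2%. There, Trem2 was seen in 54.2% of cells with H2-Aa, against all 13 cells without. Cd9 went the opposite way to Heart2, in 54.2% of Heart1 cells with H2-Aa, against 76.9% without. By Ccr2 it was in 33.3% of 6 Heart1 cells with the gene, against 67.7% of 31 without. Cd36 kept its direction by H2-Aa, 20.8% with and 30.8% without. These intervals of Cd9 and Cd36 overlapped. Macrophages with a UMI of Cdkn2a, the p16 gene itself, numbered 9 in Heart1 and 32 in Heart2 after thinning. The intervals of cells with and without Cdkn2a overlapped for all 10 genes in both libraries, which at these numbers does not show that they are alike.

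**Figure D5:**
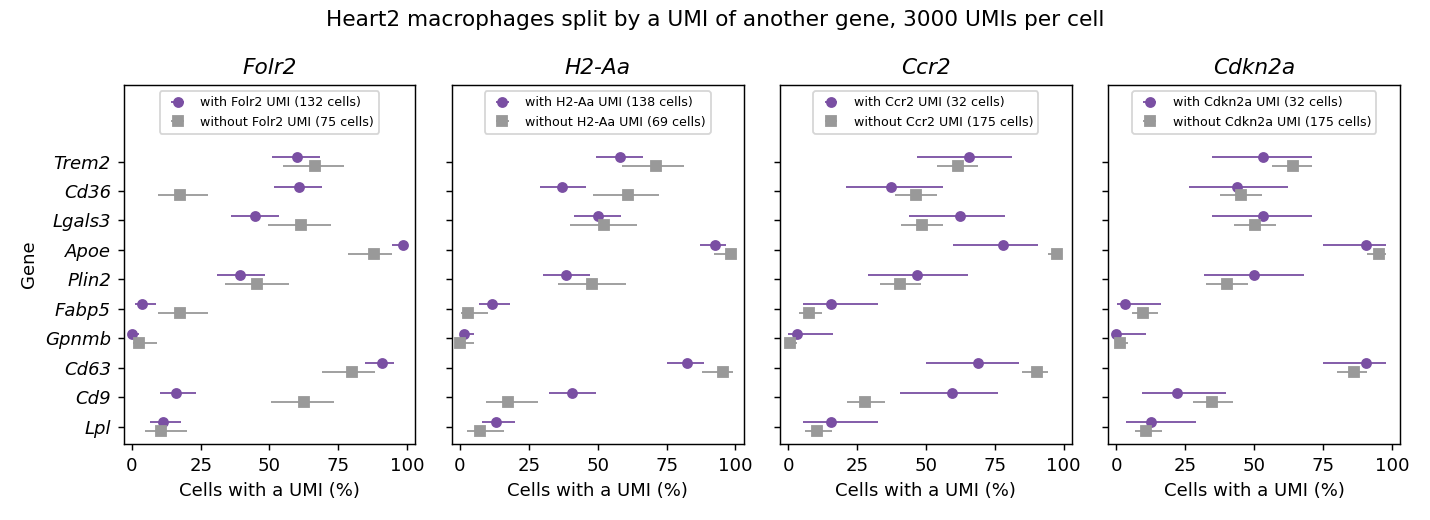
Share of Heart2 macrophages with a UMI of each gene among cells with (upper point of each gene) and without (lower point) a UMI of Folr2, H2-Aa, Ccr2 or Cdkn2a after thinning, with exact binomial intervals. Cd9 and Cd36 go opposite ways with Folr2, and no gene has intervals apart by Cdkn2a.

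Wider differences between macrophages with and without a gene were read by size alone, as at least 2-fold in both libraries on CPM + 20 after thinning. With Trem2, 0 of 775 genes tested were higher (0%) and 7 were lower (0.903%), and 0 of the list's other genes were among them. Of those, Gpnmb and Cd36 had too few UMIs to be tested. The lower ones were led by the chemokine Cxcl13, with 25 UMIs in cells with Trem2 and 58 without in Heart1, and 123 with and 320 without in Heart2, followed by Phlda1, Ier3, Ccl4 and Junb. With Lgals3, 8 of 775 were higher (1.03%) and 2 lower (0.258%). Here too, Gpnmb and Cd36 had too few UMIs to be tested. Fabp5 was the list's only gene among the 8, with log2 ratios of 2.54 in Heart1 and 1.13 in Heart2. The Heart1 value rested largely on the cell with most Lgals3, without which it was 1.05, from 11 thinned UMIs in cells with Lgals3 and 2 without, under the minimum of 20 for this reading. The others named by size were the calcium-binding S100a6 (2.61 and 2.34) and S100a4 (2.21 and 1.90), the actin-capping Capg (2.49 and 1.73), the cell cycle inhibitor Cdkn1a (1.42 and 1.56) and Tppp3 (2.86 and 1.39). The lower ones were Phlda1 and the complement gene C4b. With Gpnmb, 4 and 2 thinned macrophages are too few for such a reading.

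In fibroblasts, where Gpnmb and Lpl were common, the same reading was added after these levels were seen. With Gpnmb, in 31 cells of Heart1 and 150 of Heart2, 0 of 4492 genes were higher (0%) and 3 lower (0.0668%), namely Thbs4, Spp1 and Ccl2. With Lpl, in 84 and 753 cells, 14 genes were higher (0.312%) and 28 lower (0.623%). Those named by size among the higher ones were the chemokines Cxcl14 (1.93 in Heart1 and 1.52 in Heart2) and Ccl11 (2.76 and 1.27), with Col5a3, Gfra1 and Hsd11b1. Among the lower ones they were the matrix genes Postn (-3.12 and -2.31) and Comp (-1.67 and -1.92), with Dkk3, 1500015O10Rik and Gm12840. None of the list's other genes was among the 42, but Trem2, Lgals3 and Cd36 had too few UMIs to be tested. Plin2 was seen in 39.3% of fibroblasts with Lpl, against 20.0% without, in Heart1, and in 32.1% against 19.5% in Heart2, with intervals apart in both. Cd9 was seen in 86.9% of fibroblasts with Lpl, against 97.5% without, in Heart1, and in 77.7% against 92.4% in Heart2.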

How the data were processed

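The values for sorted mCherry-positive heart cells came from a table deposited by the authors, which holds natural log values of UMIs scaled to 10000 in each cell, after adding 1. The unit follows from the values, since each cell sums to 10000 once the log is undone. Reads were processed with Cell Ranger 3.0.2 against mm10, per the submitters' processing notes. Which tool normalized the values, and how cells or genes were filtered, is not given in the sources used here. UMI counts were recovered from the steps between values: of 4459440 values above 0, the number not whole within a tolerance of 1e-06 was 0. Every cell column was used (0 left out). Of the symbols, 15087 of 15247 matched the gene name table. Gene positions are GENCODE, on GRCm38.

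The table holds 266 cells with a median of 11351.5 UMIs in Heart1 and 1160 cells with a median of 8885.5 UMIs in Heart2. Classes were set by marker gates, not by an annotation of the authors. Scrublet marked 1 cell in Heart1 and 3 in Heart2 as doublets, which were kept. Shares carry exact binomial (Clopper-Pearson) and levels exact Poisson intervals at 95%. Intervals of levels and of their ratios cover counting error only and leave out the spread between cells. Cells are not replicates, so shares and pairs have no test. Macrophages and fibroblasts were compared with limma 3.58.1 (R 4.3.3) on log2(CPM + 5) of sums per class and library, for genes with a mean of at least 10 CPM, with a mean-variance trend and with library as a block because both classes of a library come from the same sorted suspension. The procedure was checked on simulated data. Python 3.11.15, numpy 2.4.6, pandas 2.3.3, scipy 1.17.1 and scanpy 1.11.5 were used.

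The genes, lists and markers were chosen with earlier results of these data known. Named are the 10 genes, up to 2 called genes with the largest difference from each list, and up to 5 genes per direction for each gene that splits the macrophages. Those for Gpnmb are not given, because it split off 2 cells in Heart2. The alternatives were other gates, pseudocounts, filters, scalings, thinning, no library block, and each library or predicted doublets left out.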

Additional observations from a re-analysis of the deposited data

How the results depend on the processing

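Of 130 values of the 10 differences under other settings, 3 turned direction, 8 lost the call and 1 gained it, while all 208 values of the named list genes kept their direction and, where tested, their side of the threshold. The call gained was Gpnmb, with macrophages that had a Gpnmb UMI left out. That setting removes every macrophage UMI of the gene, so its outcome was fixed beforehand. The Gpnmb difference was 0.094 with a pseudocount of 20 CPM, against -0.36 in the report. With each library left out in turn, the Fabp5 difference was -0.092 to 2.93 and the Gpnmb difference -2.93 to 2.21, values with no test. Fabp5 was also not called with a pseudocount of 1 CPM (adjusted p = 0.105), with 20 CPM (0.0816), after thinning (0.0679) or without the block (0.311; all limma). Without the library block the number of the 10 genes called lower in macrophages was 1, against 3, since Cd63 and Lpl were not called. The numbers called among all genes stayed within 1.5 times. The cause of these changes was not tested. Chosen after seeing the data were the settings that leave out the Heart1 macrophage with most Lgals3, leave out macrophages with a Gpnmb UMI, or weight each cell equally. Weighting cells equally moved 11 of 20 macrophage levels past their interval (Lgals3 in Heart1 was then 2166 CPM), and using UMIs without thinning moved 10 of 16 pair differences. Depth limits what can be said of Gpnmb, seen in 8 of 244 macrophages, and of Heart1, with 37 macrophages.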

Other observations

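Cells outside both classes were few: 6 in Heart1 and 9 in Heart2 had at least 3 of 6 endothelial markers, a class added after the cells were counted. In these cells Fabp5 was at 124 CPM in Heart1 and 975 CPM in Heart2, and Cd9 at 3071 CPM and 2074 CPM. Cd36 was at 88.2 CPM and 469 CPM. Trem2 and Gpnmb had 0 UMIs in both libraries. In Heart2, 57 of the 79 Fabp5 UMIs and 29 of the 38 Cd36 UMIs of these cells came from a single cell each. In Heart1 this held for 246 of the 348 Cd9 UMIs, 11 of the 14 Fabp5 UMIs and 8 of the 10 Cd36 UMIs.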
